A study of Mus musculus with 9 samples.

Results

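The genes described here are the 6 mitochondrially encoded subunits of respiratory complexes III and IV and of ATP synthase (complex V), namely mt-Cytb, mt-Co1, mt-Co2, mt-Co3, mt-Atp6 and mt-Atp8, out of 15340 genes tested. They were picked by name, as the protein genes of the mitochondrial genome outside complex I, once their difference between the groups in these same libraries was known, so every difference between groups given for them below is a description without a test. All 6 had 1 quantified transcript each and passed the filter on low counts. The libraries were made from the mediobasal hypothalamus (MBH) of wild-type C57Bl/6 male mice at postnatal day 21 (P21). CTRL animals (n = 4 libraries, from 4 litters) came from dams on plain drinking water, and Emul animals (n = 5 libraries, from 5 litters) from dams whose drinking water held the emulsifiers carboxymethyl cellulose (CMC, 1%) and the polysorbate P80 (1%) from before pregnancy until the end of lactation. The comparison asks how gene expression in the MBH of the offspring differs with maternal emulsifier consumption. Since pups stayed with their dams until weaning, they may also have met the emulsifiers directly.

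The mitochondrial respiratory chain passes electrons from complex I or II through complex III and cytochrome c to complex IV, and the proton gradient that this builds up drives ATP synthase. Complexes III, IV and V are made from subunits encoded in the nucleus together with a small core encoded in mitochondrial DNA, where genes are transcribed as long precursors that are then cut into single messenger RNAs. Neurons depend heavily on this pathway for the ATP that restores ion gradients. Pieces of mitochondrial DNA have also been copied into the nuclear genome over evolution, and where such a copy is annotated as a transcript it competes for the reads of the mitochondrial gene.

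On chromosome M of mm10, all 6 genes lie on the plus strand, with mt-Co1 at 5328 to 6872, mt-Co2 at 7013 to 7696, mt-Atp8 at 7766 to 7969, mt-Atp6 at 7927 to 8607, mt-Co3 at 8607 to 9390 and mt-Cytb at 14145 to 15288. Each is a single exon without introns. In the annotation of the same build, chromosome 1 carries a block of unprocessed pseudogenes on the minus strand that repeats this stretch of mitochondrial DNA in the same order. Gm29216 (chr1:24615706-24616197) corresponds to the last 492 bases of mt-Co1. Gm28661 (chr1:24614885-24615565) is an exact copy of bases 1 to 681 of mt-Co2, which has 684. Gm10925 (chr1:24613974-24614651) is an exact copy of bases 1 to 678 of the 681 of mt-Atp6, and Gm28437 (chr1:24613189-24613971) of bases 1 to 783 of the 784 of mt-Co3. The spaces between neighbouring copies were as long as those between the same bases of the mitochondrial genome, at 140 bases between the mt-Co1 and mt-Co2 copies, 233 between the mt-Co2 and mt-Atp6 copies and 2 between the mt-Atp6 and mt-Co3 copies. The gap of 233 bases is where mt-Atp8 sits in the mitochondrial genome, except for its last 43 bases. Those are shared with mt-Atp6 and so lie in Gm10925. No transcript is annotated in the gap itself, and neither mt-Atp8 nor mt-Cytb has a near-identical annotated copy.

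The 3′ ends below show how little tells a mitochondrial transcript from its nuclear copy. Capitals mark the bases that the mitochondrial transcript has and the copy lacks, and everything upstream of them is identical from the first base on.
mt-Co2, bases 655 to 684: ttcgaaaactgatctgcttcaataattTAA
Gm28661, bases 655 to 681: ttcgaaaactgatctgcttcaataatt
mt-Co3, bases 755 to 784: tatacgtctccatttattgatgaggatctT
Gm28437, bases 755 to 783: tatacgtctccatttattgatgaggatct
mt-Atp6, bases 652 to 681: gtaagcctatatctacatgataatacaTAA
Gm10925, bases 652 to 678: gtaagcctatatctacatgataataca

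The extra bases are the stop codon of mt-Co2 and mt-Atp6, and the single T with which mt-Co3 ends. kallisto assigns reads by 31-base words, and of all such words in the mitochondrial transcript 99.5% also occur in the copy for mt-Co2, 99.9% for mt-Co3 and 99.5% for mt-Atp6. The copies are read in the same sense as the mitochondrial genes, so strand does not separate them. For mt-Co1 the share was 29.6%, because its copy covers the 3′ part only and differs near its own 5′ end. The next lines show that end with the 6 differing bases in capitals.
mt-Co1, bases 1054 to 1083: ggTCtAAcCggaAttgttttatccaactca
Gm29216, bases 1 to 30: ggATtGGcAggaTttgttttatccaactca

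Counted from the first base of mt-Co1, with its base given first, these substitutions are T1056A, C1057T, A1059G, A1060G, C1062A and A1066T, and the remaining bases of the copy are identical. mt-Atp8 and mt-Atp6 overlap each other by 43 bases in different reading frames. In the stretch that follows (positions 7915 to 7981 of chromosome M, plus strand) the shared bases are in capitals, from the start codon of mt-Atp6 to the stop codon of mt-Atp8.
mt-Atp8 and mt-Atp6: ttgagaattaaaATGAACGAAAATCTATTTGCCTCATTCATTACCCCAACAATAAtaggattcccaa

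Libraries held 28245360 to 46067534 estimated counts, with the lowest total in CTRL 3. Of the counts on genes, the 6 members took 2.72% to 3.35% in CTRL and 3.44% to 4.20% in Emul, that is 3.03% ± 0.29 (SD, n = 4) against 3.80% ± 0.27 (SD, n = 5). With the nuclear copies added, these shares were 3.75% ± 0.41 and 4.53% ± 0.30. In bulk tissue, fewer cells of a type and less RNA per cell cannot be told apart. mt-Atp8 had the fewest counts, 14165 in CTRL 3, so the error of counting was small beside the spread between animals, but the error of kallisto's split between a gene and its copy is not in these files. Hypothalamic markers were present at a summed CPM (counts scaled to a common library size) of 774 to 853 in CTRL and 607 to 798 in Emul, although Kiss1 was below 1 CPM, and of 6 anterior pituitary markers Prl, Gh, Lhb and Pou1f1 were below 1 CPM, while Cga and Tshb were detected, the list summing to 7.62 to 10.8 CPM in CTRL and 8.24 to 10.3 CPM in Emul. Values per library below are CPM with library sizes scaled by TMM, a factor per library that balances composition. Log2 fold changes are Emul over CTRL from limma-voom fitted across all 15340 genes, or 15335 when copies are added to their mitochondrial gene.

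mt-Cytb encodes cytochrome b, the subunit of complex III that holds both of its quinone sites. CPM of mt-Cytb was 6098, 5593, 5359 and 6360 in CTRL and 6748, 7105, 6920, 6424 and 6539 in Emul. The lowest Emul library (Emul 4) lay just over the highest CTRL library (CTRL 4), so the groups did not overlap. The log2 fold change was 0.21 (SE 0.048, 95% confidence interval (CI) 0.10 to 0.31). As mt-Cytb has no near-identical annotated copy, nothing was added to it.

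mt-Co1 encodes the subunit of complex IV where oxygen is reduced, and it was the member with most counts. CPM of mt-Co1 was 14078, 13182, 12658 and 14755 in CTRL and 15917, 15821, 15721, 14912 and 15447 in Emul. CTRL 4 and Emul 4 were again close to each other, without overlap between the groups. The copy Gm29216 took 10.2% ± 0.38 (SD, n = 4) of the summed counts in CTRL and 10.8% ± 0.96 (SD, n = 5) in Emul, so adding it changed little. The log2 fold change was 0.19 (SE 0.040) for mt-Co1 alone and 0.20 (SE 0.043) with Gm29216.

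mt-Co2 encodes the subunit of complex IV that takes electrons from cytochrome c, and its values turned on the copy more than those of any other member. CPM of mt-Co2 alone was 1279, 1514, 1654 and 1493 in CTRL and 2686, 3723, 2632, 1865 and 2593 in Emul. CPM of Gm28661 was higher than that in every library, at 4287, 3558, 3097 and 4229 in CTRL and 3776, 4266, 3886, 4054 and 3772 in Emul, with overlap between the groups. Gm28661 thus took 77.0%, 70.2%, 65.2% and 73.9% of the summed counts in CTRL and 58.4%, 53.4%, 59.6%, 68.5% and 59.3% in Emul. Added together, mt-Co2 and Gm28661 had a CPM of 5566, 5071, 4751 and 5722 in CTRL and 6462, 7989, 6517, 5919 and 6365 in Emul. The groups did not overlap on either scale, but the difference between them was much smaller for the sum.

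On the log2 scale, mt-Co2 alone gave the largest difference of the 6, 0.83 (SE 0.15, 95% CI 0.51 to 1.16), the copy gave 0.07 (SE 0.082, 95% CI -0.11 to 0.25), and the sum gave 0.33 (SE 0.077, 95% CI 0.16 to 0.50). Adding the copy also changed how mt-Co2 followed other mitochondrial transcripts within CTRL. Set against mt-Nd1, mt-Nd2, mt-Nd5 and mt-Nd6, the complex I genes without a near-identical copy, mt-Co2 alone had a log2 ratio to their mean of -0.94 ± 0.25 for the 4 CTRL libraries and -0.45 ± 0.29 for the 5 Emul libraries (mean ± SD). With Gm28661 included, that log2 ratio became 0.89 ± 0.012 for CTRL and 0.88 ± 0.11 for Emul. CTRL libraries were thus spread over 0.57 log2 units before the copy was added and 0.027 after. For mt-Co3 and mt-Atp6 the same spread widened a little with the copy, from 0.36 to 0.42 and from 0.34 to 0.42.

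mt-Co3 encodes the third core subunit of complex IV, which supports the stability of the other two. CPM of mt-Co3 alone was 4316, 3238, 2925 and 4363 in CTRL and 5515, 7081, 5427, 4582 and 4939 in Emul. Gm28437 took 24.7%, 25.3%, 21.6% and 25.1% of the summed counts in CTRL and 15.3%, 12.1%, 16.3%, 24.3% and 23.4% in Emul, where Emul 4 and Emul 5 were at the level of CTRL. The summed CPM was 5735, 4338, 3733 and 5824 in CTRL and 6511, 8059, 6482, 6051 and 6446 in Emul. Emul 2 stood highest and CTRL 3 lowest, and the groups did not overlap. The log2 fold change was 0.57 (SE 0.14) alone and 0.47 (SE 0.12) with Gm28437, while Gm28437 itself had 0.01 (SE 0.18).

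mt-Atp6 encodes the subunit of ATP synthase that forms the proton path through the membrane next to the rotating ring. CPM of mt-Atp6 alone was 5119, 3969, 3515 and 5262 in CTRL and 6588, 7652, 6839, 5643 and 6597 in Emul. Gm10925 took a small and uneven part, 11.02% ± 2.8 (SD, n = 4) of the summed counts in CTRL and 5.73% ± 3.7 (SD, n = 5) in Emul, with a range of 2.25% in Emul 5 to 13.3% in CTRL 2. The summed CPM was 5779, 4578, 3778 and 6006 in CTRL and 6913, 8653, 7068, 6060 and 6749 in Emul. Emul 4 exceeded CTRL 4 by less than 1 SD of either group. The log2 fold change was 0.59 (SE 0.11) for mt-Atp6 alone and 0.51 (SE 0.13) with Gm10925. For Gm10925 it was -0.63 (SE 0.45, 95% CI -1.62 to 0.35).

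mt-Atp8 encodes a short membrane subunit of ATP synthase and shares its messenger RNA with mt-Atp6. CPM of mt-Atp8 was 994, 868, 497 and 1026 in CTRL and 1038, 1402, 1187, 1121 and 1388 in Emul. CTRL 3 lay far under the other CTRL libraries, and CTRL 4 nearly reached Emul 1. The log2 fold change was 0.57 (SE 0.18, 95% CI 0.19 to 0.96), and 0.34 without CTRL 3.

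**Figure D1:**
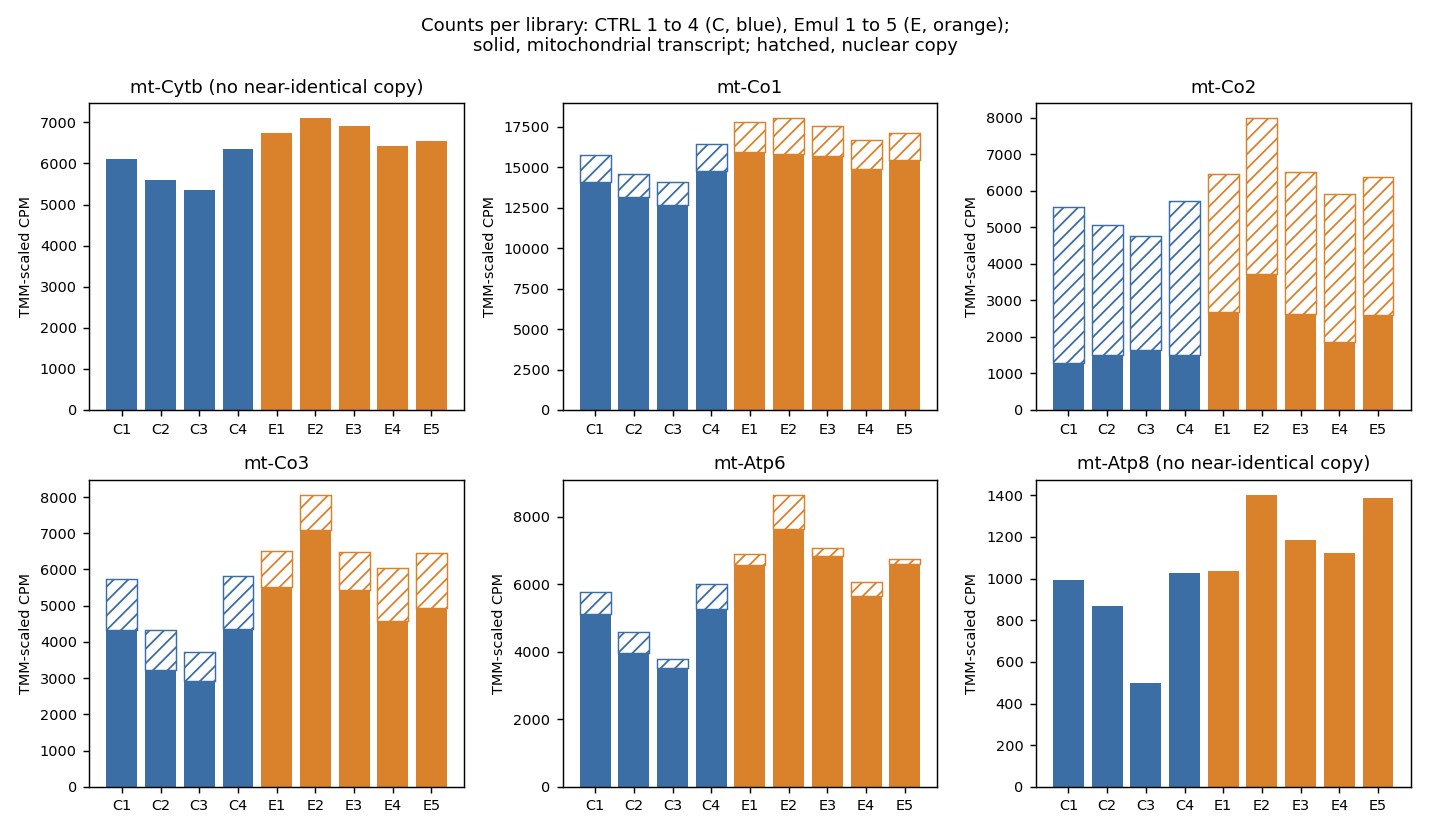
TMM-scaled CPM of each member (vertical axes, each starting at 0) in the 4 CTRL libraries (C1 to C4, blue) and the 5 Emul libraries (E1 to E5, orange), with counts on the mitochondrial transcript as solid bars and counts on its near-identical nuclear copy stacked on top as hatched bars. The hatched part is most of the bar for mt-Co2 (53.4% to 77.0%) and a small part for mt-Co1 and mt-Atp6, and every Emul bar is taller than every CTRL bar in each panel.

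CPM overlapped between the groups for each of the 4 copies of members. By log2 fold change Gm29216 was higher in Emul (0.27), Gm10925 lower (-0.63), and Gm28661 (0.07) and Gm28437 (0.01) near 0. The share on the copy was lower on average in Emul for mt-Co2, mt-Co3 and mt-Atp6 but not for mt-Co1, as the plot of shares by library shows. Gm28439 and Gm10222, exact copies of parts of mt-Nd4 and mt-Nd4l in the same block, held 0 estimated counts in every library. Of the words by which kallisto assigns reads, 62.8% of those in mt-Nd4 also occur in Gm28439 and 98.9% of those in mt-Nd4l in Gm10222. What decided how much a copy received was not tested. Annotated copies elsewhere received little, with 85.1 to 155 estimated counts on Gm13340 (mt-Co1) and 22.5 to 63.4 on Gm13341 (mt-Co2). The difference between length and effective length of the longest transcripts, which follows the mean fragment length, was 157, 151, 184 and 151 bases in CTRL and 169, 165, 169, 154 and 155 bases in Emul. Its part in the split between gene and copy was not tested.

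**Figure D2:**
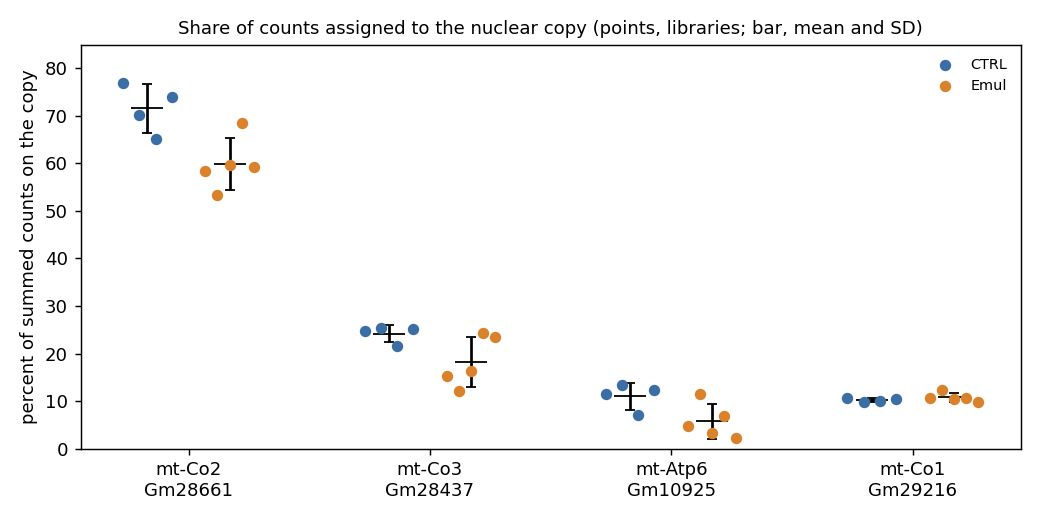
Percent of the summed counts of a member and its nuclear copy that were assigned to the copy (vertical axis), for the 4 members with a near-identical copy (horizontal axis, copy named under the member), with 1 point a library in blue for CTRL and orange for Emul, and the group mean and SD in black. For mt-Co2 the mean is 71.6% in CTRL and 59.8% in Emul, and for mt-Co1 the means are 10.2% and 10.8%.

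The study's text gives its cutoff on p once without naming an adjustment and once as a false discovery rate. It was taken here as an unadjusted p under 0.05 with a fold change above 1.5, by which 2 of the 6 members passed when counted alone, mt-Co2 and mt-Atp6, beside 0.469% of all genes in either direction and 0.248% in the higher direction. With an adjusted p under 0.05 (limma-voom, Benjamini-Hochberg) and the same fold change, 0 of the 6 passed, beside 0.00652% of all genes. As this contrast chose the members, nothing is read from these counts. mt-Atp6 (0.59), mt-Atp8 (0.57) and mt-Co3 (0.57) all sat next to the cutoff of 0.585 on the log2 scale. With copies added, no estimate reached it, the highest being mt-Atp8 at 0.57, and 0.228% of all genes passed in the higher direction. The median log2 fold change of the 6 was 0.57 alone and 0.40 with copies, where the median over all genes tested was 0.0015. All 6 members lay higher in Emul without overlap, alone and with copies, as did 2.80% of all genes. By library size without TMM, the groups overlapped for mt-Co1, mt-Atp8 and mt-Cytb alone, and for mt-Atp6, mt-Atp8 and mt-Cytb with copies. The share of all genes without overlap was not counted on that scale.

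In genome order and with copies added, differences were smallest at mt-Co1 and mt-Cytb and largest from mt-Atp8 to mt-Nd3. The 7 mitochondrially encoded complex I genes had log2 fold changes of 0.28 to 0.59, with a median of 0.34. Once copies were added, the range was 0.28 to 0.62 and the median again 0.34, the highest being mt-Nd3, whose copy Gm28438 lies in the same block. mt-Co1 and mt-Cytb were below all 7 of them.

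**Figure D3:**
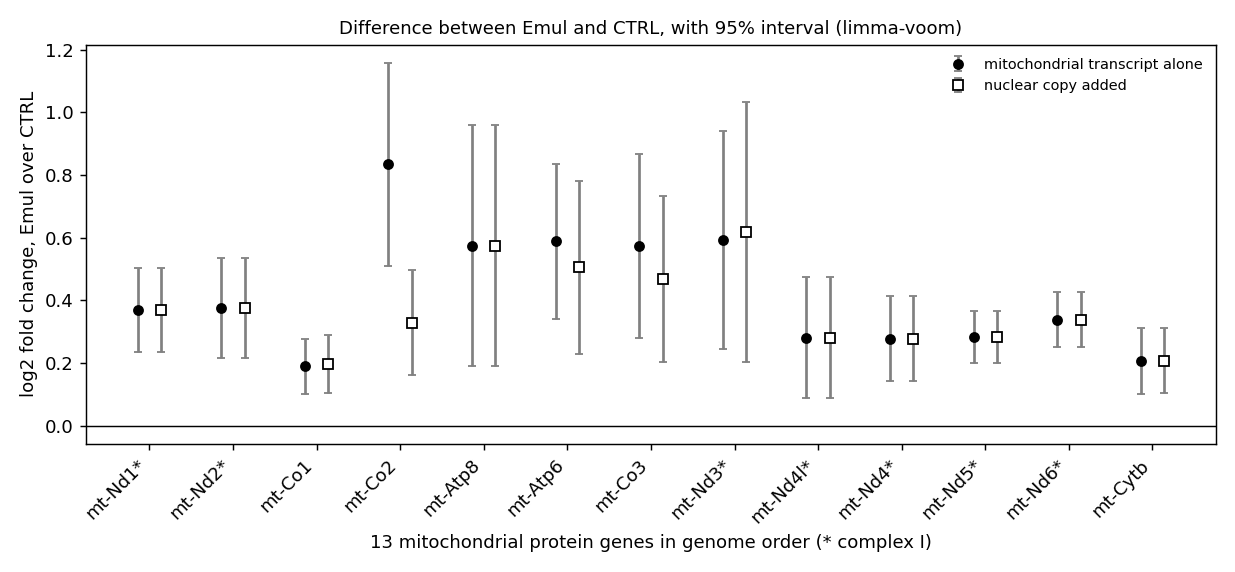
Log2 fold change of Emul over CTRL (vertical axis) with its 95% interval from limma-voom for the 13 mitochondrial protein genes in genome order (horizontal axis, complex I genes starred), with filled circles for the mitochondrial transcript alone and open squares for the sum with its nuclear copy. mt-Co2 falls from 0.83 to 0.33 when its copy is added, and the other members move by 0.11 or less. The intervals take no account of how the members were chosen and are not tests.

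Relative to the 4 complex I genes without a near-identical copy, the members did not all move alike. With copies included, the log2 ratio of mt-Co1 to their mean (± SD) was 2.42 ± 0.016 for CTRL and 2.28 ± 0.037 for Emul, with every Emul library below every CTRL library. The same held for mt-Cytb, at 1.04 ± 0.0072 and 0.91 ± 0.026. The groups overlapped for mt-Co2 as given above, for mt-Co3 (0.77 ± 0.20 and 0.89 ± 0.11), for mt-Atp6 (0.80 ± 0.20 and 0.97 ± 0.13) and for mt-Atp8 (-1.80 ± 0.39 and -1.56 ± 0.17). mt-Co1 and mt-Cytb thus differed less between the groups than these complex I transcripts did, and both also held a smaller part of the TPM (a level per effective length) of all 13 mitochondrial protein genes, 12.98% in CTRL and 11.3% in Emul for mt-Co1 and 7.02% and 6.14% for mt-Cytb. The part of mt-Nd4 was smaller too, at 5.76% in CTRL and 5.30% in Emul, without overlap. mt-Nd1, mt-Nd2, mt-Nd4l, mt-Nd5 and mt-Nd6 had lower means in Emul with overlap, and mt-Nd3 a higher one. mt-Atp8 held a larger part, 14.8% in CTRL and 17.5% in Emul, without overlap. The parts add up to a fixed total, so a larger part for some genes leaves less for the others. All these parts include the copies. Without copies, the part of mt-Atp8 was 14.8% to 18.7% in CTRL and 18.4% to 21.4% in Emul, with overlap.

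Levels between genes were compared per length, as TPM. In CTRL, mt-Atp8 was highest at 24676 ± 4480 TPM (SD, n = 4), followed by mt-Co1 at 19180 ± 918, mt-Atp6 at 16614 ± 2660, mt-Cytb at 11558 ± 628, mt-Co3 at 11526 ± 1960 and mt-Co2 at 5534 ± 762. The range of mt-Co2 was clear of all others, whereas mt-Cytb and mt-Co3 could not be ordered, with mt-Cytb higher in 2 of 4 libraries. With copies added, mt-Co2 moved from the last place to the third at 19575 ± 998 TPM, between mt-Co1 (21366 ± 1084) and mt-Atp6 (18720 ± 3280), whose ranges it overlapped. In Emul, the order with copies was mt-Atp8 (35538 ± 3805, n = 5), mt-Atp6 (24673 ± 2680), mt-Co2 (23021 ± 2095), mt-Co1 (22824 ± 327), mt-Co3 (19491 ± 1703) and mt-Cytb (12431 ± 278). mt-Co2 exceeded mt-Co1 there in only 1 of 5 libraries, and mt-Atp6 exceeded mt-Co2 in all 5 although their ranges overlapped.

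The first place of mt-Atp8 rested on the length by which counts are divided. Its transcript has 204 bases, of which 52.4 to 71.6 counted as effective length, the number of positions at which a fragment could start. Divided by annotated length instead, a choice made after the data were seen, mt-Atp8 was last in CTRL at 4147 ± 1190 CPM per kb, and mt-Co1 first at 9856 ± 702.

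**Figure D4:**
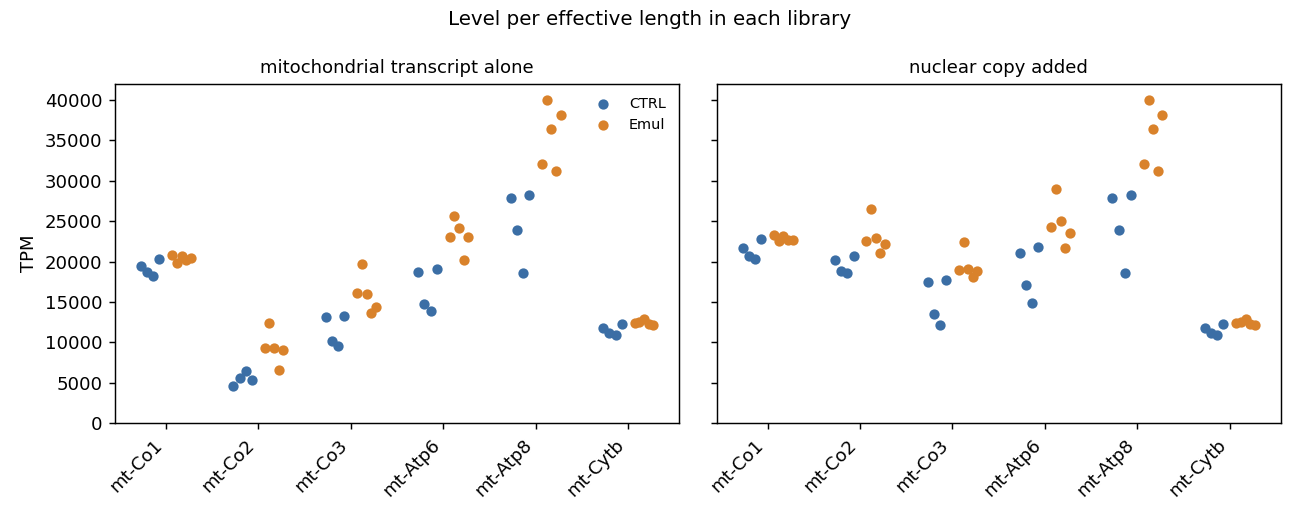
TPM (vertical axis, from 0) of the 6 members in each library, with blue points for CTRL and orange points for Emul, for the mitochondrial transcript alone (left) and with its nuclear copy added (right). mt-Co2 is the lowest member on the left (5534 TPM on average in CTRL) and lies beside mt-Co1 on the right (19575 TPM).

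The same libraries stood at the ends of the range for most members. With copies added, CTRL 3 was the lowest CTRL library for 6 of 6 members, Emul 2 the highest Emul library for 6 of 6, and Emul 4 the lowest Emul library for 5 of 6. Likeness to the mean log2 CPM of the 6, counted without copies, was taken over the 9 libraries after subtraction of each group's mean. The genes outside the members most like it were mt-Nd1 (Pearson r = 0.996), Gm28438 (r = 0.971), Golga5 (r = 0.970), mt-Nd2 (r = 0.966) and Rhoc (r = 0.959). These values describe 9 libraries that share depth and composition effects, and were picked as the highest of all genes. Counted without copies, the members did not all vary together. On the same scale mt-Co2 alone had r = -0.03 to 0.40 with the other members, and pairs without mt-Co2 had 0.69 to 0.97. These r values were not calculated with copies added. Adding Gm28661 did narrow the CTRL spread of mt-Co2 against the complex I genes from 0.57 to 0.027 log2 units, as given above. The low r of mt-Co2 is therefore not read as separate behaviour of its transcript.

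Markers of some other cell types moved between the groups in the same libraries, beside 6.84% of all genes that were higher and 8.99% that were lower at an unadjusted p under 0.05. The summed CPM of 8 oligodendrocyte markers was 13526 to 17021 in CTRL and 10530 to 14415 in Emul, and 7 of the 8 were lower in Emul at an unadjusted p under 0.05 (limma-voom). Of 9 neuron markers, 5 were higher and 1 lower at that threshold, with a summed CPM of 3586 to 3751 in CTRL and 3748 to 3875 in Emul. Thalamus markers summed to 415 to 485 and 454 to 676 CPM, with 2 of 8 higher. Of the 14 hypothalamus markers tested 3 were lower, and of 8 astrocyte markers 2 were lower. In 2 more lists 1 gene each was lower, that is among the markers of the suprachiasmatic nucleus (6 tested) and of endothelium (8 tested), and no marker of microglia (8), erythroid cells (5), ependyma and tanycytes (8) or anterior pituitary (2) passed in either direction (limma-voom). The summed ranges of all these lists overlapped between the groups, and the part of these cell types in the differences of the members was not tested.

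Nuclear genes of the same complexes were not used to choose the members, so they were tested. Their lists were still drawn up with earlier results of these data known. The p-values and shares below therefore do not come from a choice blind to these data. Of 44 such genes, 42 had enough counts to be tested, and 6 were higher and 1 lower in Emul at an unadjusted p under 0.05 (limma-voom), beside the same 6.84% and 8.99% of all genes. The 6 higher genes are 14.3% of the 42. By the unadjusted cutoff with its fold change 0 of 42 passed (limma-voom, edgeR and DESeq2), beside 0.469% of all genes, and the smallest p-value of the 42 after Benjamini-Hochberg adjustment over all genes was 0.15. Their log2 fold changes ran from -0.36 to 0.26 with a median of 0.09, and 37 of 42 (88.1%) were above 0, beside 50.8% of all genes.

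In complex III, 1 of 9 was higher and none lower. That was the core subunit Uqcrc2, at 0.09 (SE 0.034, adjusted p = 0.24, limma-voom), while Uqcrb had 0.17, the electron carrier subunit Cyc1 -0.03 and the Rieske iron-sulphur protein Uqcrfs1 -1.7e-05. In complex IV, 1 of 15 was higher, the small subunit Cox7b at 0.22 (SE 0.091, adjusted p = 0.26, limma-voom). Cox6b1 had 0.13 and Cox7a1, an isoform better known from heart and skeletal muscle, -0.12. In ATP synthase, 4 of 18 were higher and 1 lower. Atp5f1, a subunit of the peripheral stalk, had 0.13 (SE 0.036, adjusted p = 0.15, limma-voom) without overlap between the groups, Atp5c1, the gamma subunit of the central stalk, had 0.10 (adjusted p = 0.18), and Atp5g2, one of the genes for the rotating ring, was the lower one at -0.36 (adjusted p = 0.24). Atp5e, the epsilon subunit of the central stalk, had -0.09. Of 28 assembly factors of these complexes, 27 were tested and 3 were higher, among them Lyrm7 (0.16) and Uqcc3 (0.18), which serve complex III, and none was lower. Taco1, a translational activator of mt-Co1, had -0.10, and Atpaf2, a chaperone of ATP synthase, -0.06.

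**Figure D5:**
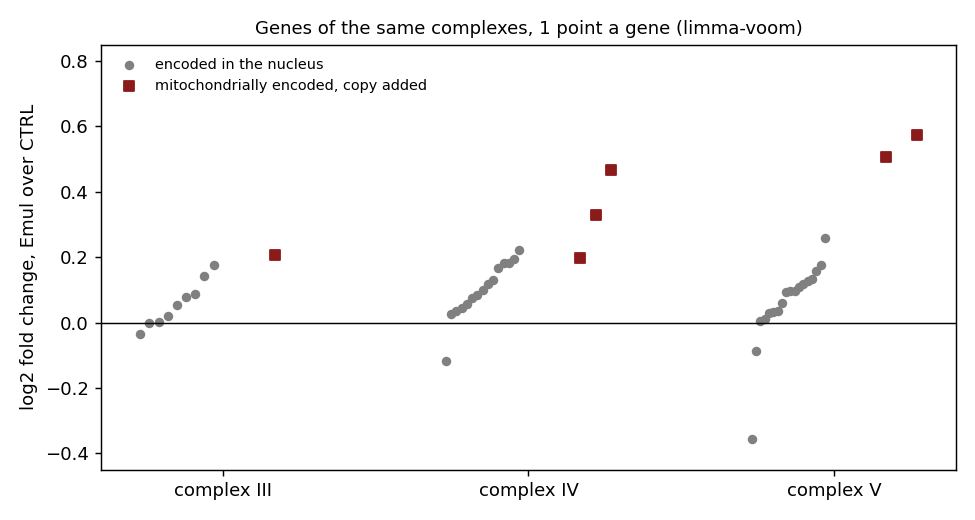
Log2 fold change of Emul over CTRL (vertical axis) for the genes of complexes III, IV and V (horizontal axis), with grey circles for the 42 nuclear genes tested and red squares for the 6 mitochondrially encoded members with copies added. Nuclear genes lie between -0.36 and 0.26, and the members between 0.20 and 0.57.

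The count of 6 higher nuclear genes was sensitive to single libraries, with 2 when CTRL 3 was left out and 17 when Emul 3 was. It was 2 by library size without TMM. The shares of all genes that were higher in those runs were not counted.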

How the data were processed

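Per the submitters' processing notes, the authors checked reads with FastQC 0.11.9 and quantified them with kallisto 0.46.1 on mm10. The libraries were strand-specific, but kallisto's strand setting is not given in the sources used here. The deposited files hold estimated counts, not normalized and not always whole, and TPM for 119414 transcripts per library, and the authors deposited a log2 CPM table of 14592 named genes (1 row without a name was not used), for which the notes list edgeR 3.40.1.

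Transcripts were matched to GENCODE M21 (97.8% matched, 97.3% with the same version), and unmatched transcripts, which held 1.20% to 1.27% of counts, were dropped. Counts were summed per gene, filtered (CPM above 1 in at least 4 libraries), scaled by TMM and fitted with limma-voom without covariates (limma 3.58.1, edgeR 4.0.16, R 4.3.3). A nuclear copy was called near-identical where at least 90% of its 31-base words, read from the reference transcripts, occur in the mitochondrial transcript. Its counts were then added to that gene in a second fit. Counts were rounded for edgeR and DESeq2 1.42.0 only, and log2 CPM of single libraries used a prior count of 2. Adjusted p-values are Benjamini-Hochberg values over all genes tested.

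Groups and replicate numbers came from the sample labels. No batch is given, and none was modelled. The members and the gene lists were chosen with earlier results of these data known. Named nuclear genes are, per list, up to a pair with the smallest p-values in each direction, as none passed the cutoff. No 2 libraries of a group agreed within sampling noise (chi-square per gene of at least 6.79). Alternatives were other tests, scalings, filters, gene summaries, the authors' table, removal of a GC trend, a replicate block, and each library left out in turn. The scripts were tested on simulated counts.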

Additional observations from a re-analysis of the deposited data

Results flagged for a closer look

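Single libraries that stood far from the rest of their group were looked for in 32 groups of values, where chance gives about 1 in 20 (1.6 groups), and 2 were found. Emul 2 had a log2 CPM of 12.98 for mt-Co3 with its copy, and the other Emul libraries had 12.56 to 12.67. CTRL 3 had 21.6% of the summed mt-Co3 counts on Gm28437, and the other CTRL libraries had 24.7% to 25.3%.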

How the results depend on the processing

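No log2 fold change of a member, alone or with copies, fell below 0 under any alternative run. The count of members past the cutoff, 2 in the text, was 1 with edgeR, with DESeq2, by library size alone, without the filter on low counts and with the GC trend removed, 0 with copies added or with an adjusted p under 0.05 (limma-voom) as the criterion, 3 with the authors' log2 CPM table (mt-Atp8 at 0.64) and with the replicate block, and 1 to 4 with a library left out (4 without CTRL 1, CTRL 4 or Emul 4, and 1 without CTRL 3, Emul 2 or Emul 3). Of these runs, the share of all genes that passed was counted only with copies added (0.228%, higher) and by adjusted p (0.117%, either direction). In the other runs the count of members has no share beside it, and nothing is read from it. mt-Co2 went from 0.83 to 0.33 with its copy added, through the added counts. Without CTRL 3, mt-Atp8 fell to 0.34. The difference in the share on the members, 0.764 percentage points of counts, was 2.78 points of TPM. The count of nuclear genes higher in Emul, 6 in the text, was 2 by library size alone and 2 to 17 with a library left out, and that of lower genes, 1 in the text, was 0 to 1. In CTRL, mt-Co2 ranked 6 by TPM alone, 3 with its copy and 2 per annotated length, and mt-Atp8 ranked 1 by TPM and 6 per annotated length, both alternatives chosen after seeing the data. With the replicate number as a block, 16 nuclear genes were higher, but the numbers do not pair the libraries in the labels, same-numbered libraries correlated at -0.16 to 0.02, and no library correlated best with its own number. Each member had at least 14165 estimated counts in every library, and the part of depth in the differences was not tested. Reads that fit a member and its copy equally cannot be assigned from these files.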
